A study of Mus musculus with 8 samples.

Results

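The regions described here are distal intergenic H3K27me3 peaks of Wild type mouse chondrocytes that also carry a peak in at least 1 of 3 knockouts. They were chosen by measured values: a Wild type peak under 5000 bp long, with its centre more than 5 kb outside every RefSeq protein-coding gene, overlapped by 1 bp or more in at least 1 knockout list. Of 28057 Wild type peaks, 28050 lay on chromosomes 1 to 19, X and Y, 4636 of these were distal and under the length limit, and 3941 met the whole rule. These 3941 peaks covered 3.09 Mb. Their presence in a knockout list was used to choose them, so every share of them in a knockout list is a description and carries no test.

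The study mapped H3K27me3 in cultured chondrocytes, which the labels assign to cartilage, of 4 genotypes: Ezh2-Cko, Utx-cKO, Jmjd3-Cko and Wild type. All were grown in DMEM with serum. Each genotype has 1 ChIP library and 1 input library, so no value has a replicate error. The 95% intervals of shares (Wilson's method) cover only counting error. The labels used here do not give the Cre driver, the age of the animals, or whether cells of several animals were pooled. The authors called broad peaks for each ChIP library against its own input at a q of 0.05. Filtered fragments numbered 34786292 in Ezh2-Cko, 34359111 in Utx-cKO, 25655346 in Jmjd3-Cko and 29222251 in Wild type ChIP libraries. The lists held 33739 peaks in Ezh2-Cko, 49405 in Utx-cKO, 27013 in Jmjd3-Cko and 28057 in Wild type. Library names carry 1 prefix for Utx-cKO and Jmjd3-Cko and another for each other genotype, so a library series and a genotype cannot be told apart except between those 2 knockouts. Peak lists hold no expression, so neither the cell type nor the deletions could be checked here.

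H3K27me3 is trimethylation of lysine 27 of histone H3. EZH2, the catalytic subunit of Polycomb repressive complex 2, writes it, and the demethylases UTX (KDM6A) and JMJD3 (KDM6B) remove it. The mark is known for silent developmental genes, and between genes it is found over poised regulatory elements. In the deposited Wild type list, however, 29 of 30 housekeeping genes had a peak within 2 kb of an end, against 13 of 39 transcription factors of other lineages and 62.3% of all 21883 protein-coding genes. A peak is therefore called here by the label of its library, H3K27me3, and is not read as a silent gene, and the reason for this distribution was not tested. The lists do not look like a typical H3K27me3 profile, and whether the antibody or the files match their labels could not be checked, so every fold enrichment below is that of the labelled library and may not measure this mark.

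The strongest distal kept peak lay beside the miR-17 cluster, and several of the next strongest lay at the starts of long non-coding RNA (lncRNA) genes. The sequences of the cluster are shown because the peak is the strongest of all 3941, and the seed (bases 2 to 8, in capitals) groups its products. They are mature miRNAs from RefSeq, build GRCm38.p6, written 5′ to 3′.
miR-17-5p: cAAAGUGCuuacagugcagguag
miR-20a-5p: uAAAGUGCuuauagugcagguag
miR-18a-5p: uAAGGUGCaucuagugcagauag
miR-19a-3p: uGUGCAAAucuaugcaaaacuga
miR-19b-3p: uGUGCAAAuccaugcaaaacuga
miR-92a-3p: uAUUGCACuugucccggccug
The miR-17 and miR-20a products share the seed AAAGUGC, and the miR-19a and miR-19b products share GUGCAAA. The cluster is a polycistron known for driving proliferation, and loss of its human counterpart causes Feingold syndrome, with short digits. The Wild type peak spanned chr14:115040318-115043041 and ended 630 bases before the Mir17 hairpin, 50.5 kb from the nearest protein-coding gene, Gpc5. Its fold enrichment over the local input was 15.2 in the Ezh2-Cko list, 17.0 in the Utx-cKO list, 22.2 in the Jmjd3-Cko list and 18.6 in the Wild type list. The peak was 2893 bp long in Ezh2-Cko, 3231 bp in Utx-cKO, 3207 bp in Jmjd3-Cko and 2724 bp in Wild type. By percentile rank of fold enrichment within its own list, it stood at 99.3 in Ezh2-Cko, 99.3 in Utx-cKO, 99.7 in Jmjd3-Cko and 99.9 in Wild type. Fold enrichments are the authors' values, scaled to each library pair. A knockout value belongs to the whole knockout peak that overlaps most. That peak can be longer than the Wild type peak whose position is given. Here and below fold enrichments are given list by list and are not comparable in size between lists. A higher value in a knockout is therefore not read as a gain.

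Promoter windows are shown for 8 lncRNA genes whose start lies under a distal kept peak, chosen after their values were seen to span CpG-rich and CpG-poor starts. Each window runs from 250 bases before to 50 bases after the start, from RefSeq build GRCm38.p6, on the gene's strand, with every CpG in capitals.
B330016D10Rik: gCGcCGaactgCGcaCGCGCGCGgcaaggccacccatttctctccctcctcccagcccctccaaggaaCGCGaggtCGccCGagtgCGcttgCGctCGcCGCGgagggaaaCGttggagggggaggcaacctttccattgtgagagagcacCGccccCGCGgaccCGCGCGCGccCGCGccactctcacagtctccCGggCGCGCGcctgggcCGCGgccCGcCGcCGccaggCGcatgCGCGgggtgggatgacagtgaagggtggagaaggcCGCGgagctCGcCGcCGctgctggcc
9430091E24Rik: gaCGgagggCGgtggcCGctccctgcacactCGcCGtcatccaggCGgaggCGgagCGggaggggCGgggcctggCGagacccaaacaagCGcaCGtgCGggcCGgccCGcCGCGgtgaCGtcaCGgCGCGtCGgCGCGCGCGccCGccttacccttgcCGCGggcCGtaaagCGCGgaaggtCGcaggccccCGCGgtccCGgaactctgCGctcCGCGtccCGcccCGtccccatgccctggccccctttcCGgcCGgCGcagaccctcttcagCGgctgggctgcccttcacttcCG
Dancr: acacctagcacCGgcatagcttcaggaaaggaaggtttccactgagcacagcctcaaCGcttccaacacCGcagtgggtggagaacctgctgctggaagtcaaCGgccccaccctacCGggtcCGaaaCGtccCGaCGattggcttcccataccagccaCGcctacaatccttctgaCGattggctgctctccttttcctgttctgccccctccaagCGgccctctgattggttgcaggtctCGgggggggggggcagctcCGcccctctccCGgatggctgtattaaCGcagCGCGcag
C030034I22Rik: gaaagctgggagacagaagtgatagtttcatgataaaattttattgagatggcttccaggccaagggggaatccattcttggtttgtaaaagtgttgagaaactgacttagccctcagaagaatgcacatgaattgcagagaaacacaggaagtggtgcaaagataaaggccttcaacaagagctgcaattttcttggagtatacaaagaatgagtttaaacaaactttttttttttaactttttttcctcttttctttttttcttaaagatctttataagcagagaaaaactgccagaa
Mir99ahg: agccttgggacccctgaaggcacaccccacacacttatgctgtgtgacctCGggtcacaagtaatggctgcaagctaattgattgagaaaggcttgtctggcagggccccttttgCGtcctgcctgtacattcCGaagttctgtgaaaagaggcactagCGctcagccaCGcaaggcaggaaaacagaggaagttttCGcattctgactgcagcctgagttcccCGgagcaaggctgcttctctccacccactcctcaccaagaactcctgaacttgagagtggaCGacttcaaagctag
Snhg5: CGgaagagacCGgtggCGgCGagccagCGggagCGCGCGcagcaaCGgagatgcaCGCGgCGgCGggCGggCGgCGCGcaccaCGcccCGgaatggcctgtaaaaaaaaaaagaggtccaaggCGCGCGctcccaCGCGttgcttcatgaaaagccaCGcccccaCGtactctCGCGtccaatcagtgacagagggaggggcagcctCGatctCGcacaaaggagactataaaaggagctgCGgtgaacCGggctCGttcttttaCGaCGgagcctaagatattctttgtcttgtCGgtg
Meg3: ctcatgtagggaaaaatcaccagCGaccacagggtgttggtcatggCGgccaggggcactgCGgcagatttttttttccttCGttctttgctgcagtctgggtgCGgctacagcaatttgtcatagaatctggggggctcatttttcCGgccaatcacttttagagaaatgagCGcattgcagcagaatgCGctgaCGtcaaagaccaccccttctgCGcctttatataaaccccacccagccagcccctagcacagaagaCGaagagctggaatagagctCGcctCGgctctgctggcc
Xist: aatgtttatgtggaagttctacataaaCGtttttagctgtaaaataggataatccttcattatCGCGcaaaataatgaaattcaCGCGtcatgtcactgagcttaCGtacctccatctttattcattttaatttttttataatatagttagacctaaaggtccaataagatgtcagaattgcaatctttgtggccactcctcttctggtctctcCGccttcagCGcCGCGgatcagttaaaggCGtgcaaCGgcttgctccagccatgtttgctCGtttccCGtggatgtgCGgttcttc
The B330016D10Rik window, chr4:141545912-141546211 on the plus strand, held 43 CpGs, the 9430091E24Rik window, chr8:111145449-111145748 on the minus strand, held 46, and the Snhg5 window, chr9:88522848-88523147 on the minus strand, held 36. The Dancr window at chr5:74092810-74093109 on the plus strand held 18, the Xist window at chrX:103483184-103483483 on the minus strand held 15, the Meg3 window at chr12:109540746-109541045 on the plus strand held 13, and the Mir99ahg window at chr16:77329078-77329377 on the plus strand held 8. The C030034I22Rik window at chr17:69416197-69416496 on the plus strand held no CpG at all. Most of that window lies before the peak, which had a fold enrichment of 11.4 in Ezh2-Cko, 14.5 in Utx-cKO, 10.2 in Jmjd3-Cko and 10.2 in Wild type.

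Over all such starts, distal non-coding promoters under a kept peak were richer in CpGs than those without a peak. The RefSeq table matched 369 windows of 326 distal non-coding genes to distal kept peaks, with a median of 10 CpGs, against a median of 3 in 6306 windows of distal non-coding genes under no Wild type peak. Windows with 15 or more CpGs made up 30.1% of those under a kept peak (interval 25.6% to 34.9%), against 1.25% of those under none (1.01% to 1.56%). For comparison, 76.1% of the protein-coding windows under a Wild type peak and 7.13% of those under none reached 15 CpGs. The table holds no window of chromosome 18. The GC box GGGCGG, searched on both strands, stood in 39.6% of windows under a kept peak, 6.82% of those under none and 35.7% of all 32851 promoter windows; it contains a CpG itself. The other motifs searched were less frequent under a kept peak than in windows under none, though the AP-1 shares lay close. TATAAA stood in 13.6% against 18.01% and 13.6% of all windows, CCAAT in 29.5% against 38.5% and 37.4%, the AP-1 motif TGANTCA in 10.0% against 10.7% and 7.81%, and the E-box CANNTG in 70.7% against 81.0% and 72.3%, on either strand. The median share of G and C was 53.7% in windows under a kept peak and 46.7% in those under none. Its part in the motif shares was not tested. A match of letters is no sign of a bound factor.

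**Figure D1:**
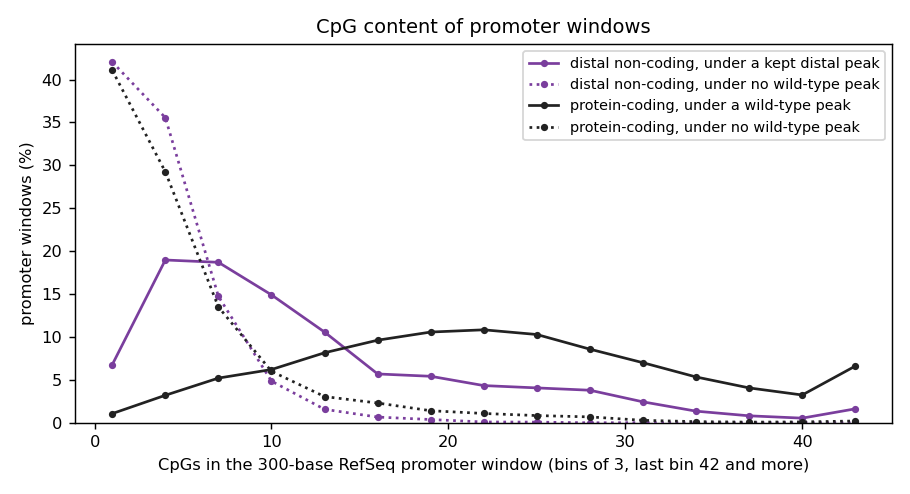
Share of promoter windows (vertical axis, %) by the number of CpGs in the 300-base window (horizontal axis, bins of 3), for distal non-coding genes and protein-coding genes with and without a Wild type peak. Distal non-coding windows under a kept peak had a median of 10 CpGs, between the median of 3 of those under no peak and the median of 22 of protein-coding windows under a peak.

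Where a distal kept peak covered a CpG-rich non-coding start, the peak was stronger and was shared more widely. Of the 102 kept peaks over a window with 15 or more CpGs, 94 were in all 3 knockout lists (92.2%), and the median Wild type fold enrichment was 4.76. Of the 209 over windows with fewer CpGs only, 161 were in all 3 (77.0%), at a median of 3.22.

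In the deposited lists, most of the peaks were in Utx-cKO and fewest in Jmjd3-Cko. Of the 3941 peaks, 3086 (78.3%, interval 77.0% to 79.6%) were in the Ezh2-Cko list, 3611 (91.6%, 90.7% to 92.5%) in the Utx-cKO list and 2666 (67.6%, 66.2% to 69.1%) in the Jmjd3-Cko list. The background is the share of all 28050 Wild type peaks overlapped, which was 80.7% for Ezh2-Cko, 87.3% for Utx-cKO and 75.8% for Jmjd3-Cko, but the rule used these lists and nothing is read from the difference. The order was not the same under every setting, and the part of list length in it was not tested. With each list held to the 27007 peaks of highest fold enrichment, as many as the shortest has on chromosomes, the shares were 77.0% in Utx-cKO, 75.9% in Ezh2-Cko and 76.2% in Jmjd3-Cko. With fold enrichment of 4 or more required in every list, they were 93.8% in Utx-cKO, 80.6% in Ezh2-Cko and 83.8% in Jmjd3-Cko. On each of the 19 autosomes, the deposited Utx-cKO list held the highest share.

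All 3 knockout lists together held 2254 of the peaks (57.2%), against 69.8% of all Wild type peaks. A further 914 were in 2 lists and 773 in 1 list. The largest of the remaining groups was 603 peaks in Ezh2-Cko and Utx-cKO but not Jmjd3-Cko, followed by 515 in Utx-cKO alone, 239 in Utx-cKO and Jmjd3-Cko, 157 in Ezh2-Cko alone, 101 in Jmjd3-Cko alone and 72 in Ezh2-Cko and Jmjd3-Cko. Peaks in all 3 lists had a median Wild type fold enrichment of 3.18 and a median length of 785.5 bp, and the 515 in Utx-cKO alone had 2.71 and 396 bp. Few peaks in 1 knockout alone were strong: 4 of 157 in Ezh2-Cko alone, 2 of 515 in Utx-cKO alone and 2 of 101 in Jmjd3-Cko alone had a Wild type fold enrichment of 4 or more. The strongest in Ezh2-Cko alone, at chr3:78966705-78967451 by the pseudogene Gm9762, had 6.61 in Ezh2-Cko and 7.06 in Wild type. In Utx-cKO alone it lay at 1700007F19Rik, with 3.06 in Utx-cKO and 4.29 in Wild type, and in Jmjd3-Cko alone at Gm17767, with 2.63 in Jmjd3-Cko and 4.53 in Wild type.

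**Figure D2:**
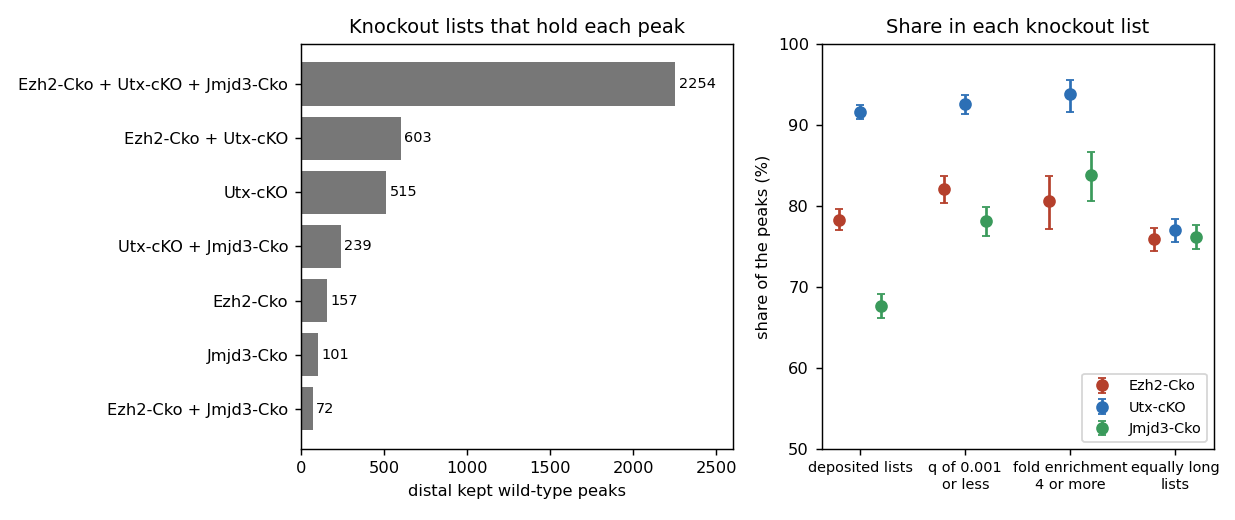
Left, number of distal kept Wild type peaks (horizontal axis) in each combination of knockout lists. Right, share of the peaks (%) in each knockout list, with 95% Wilson intervals, for the deposited lists and for 3 stricter or equalised versions; 91.6% were in the deposited Utx-cKO list, and 77.0% when all lists were equally long.

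Distal position itself can be compared before the knockouts enter the rule. Of the 4636 distal Wild type peaks under the length limit, 3941 (85.0%, interval 84.0% to 86.0%) were kept in at least 1 knockout, against 98.9% of 11810 peaks at a gene end, 86.3% of 10160 peaks inside a gene away from its ends, and 91.8% of all Wild type peaks. All 3 knockouts held 48.6% of the distal peaks, 93.5% of the gene-end peaks and 50.8% of the peaks inside genes. Distal kept peaks were also weak and short, with a median Wild type fold enrichment of 2.92 (quartiles 2.64 and 3.51) and a median length of 596 bp, against 5.94 and 1693 bp at gene ends and 2.86 and 766 bp inside genes.

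The gap to gene ends was also seen among peaks of like strength. In the lowest quartile of Wild type fold enrichment, the Ezh2-Cko list held 55.9% of 1638 distal peaks and 77.0% of 956 gene-end peaks, the Utx-cKO list held 73.3% of the distal and 90.7% of the gene-end peaks, and the Jmjd3-Cko list held 43.8% of the distal and 61.6% of the gene-end peaks. In the highest quartile the shares of the 146 distal peaks were 99.3% in Utx-cKO, 98.6% in Ezh2-Cko and 95.9% in Jmjd3-Cko, against at least 99.9% of gene-end peaks in each list. The shares of distal peaks in the lowest quartile were nearer to those of peaks inside genes, which were 75.2% in Utx-cKO, 58.5% in Ezh2-Cko and 46.8% in Jmjd3-Cko. In the second quartile the Jmjd3-Cko list held 50.1% of distal peaks (47.8% to 52.4%) and 56.8% of peaks inside genes (55.3% to 58.4%). Length was not matched within these quartiles. The 695 distal peaks in no knockout list had a median fold enrichment of 2.75, a maximum of 4.43 and a median length of 348 bp.

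**Figure D3:**
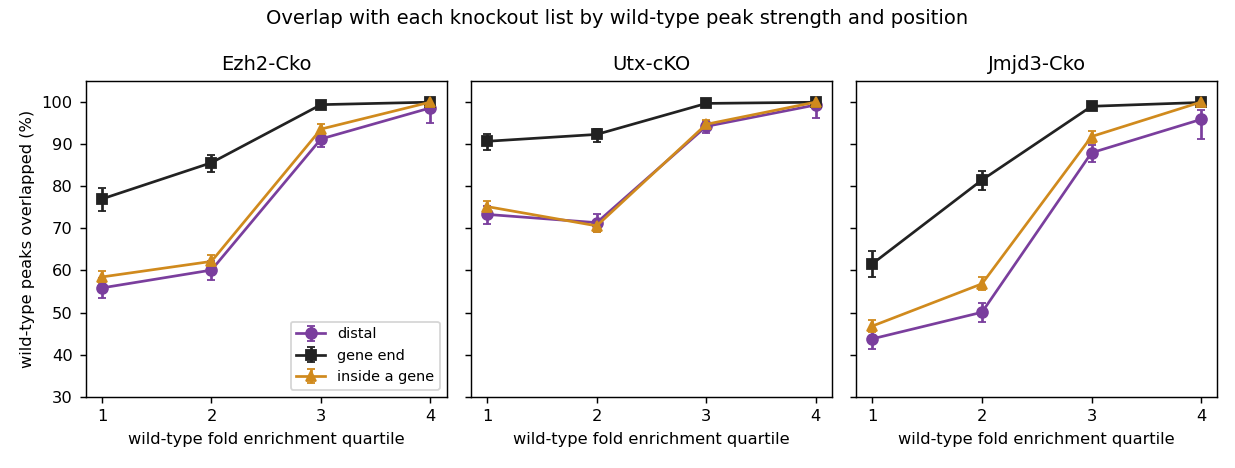
Share of Wild type peaks overlapped in each knockout list (vertical axis, %, with 95% Wilson intervals) by quartile of Wild type fold enrichment, for distal peaks, peaks at gene ends and peaks inside genes. Distal peaks sit nearer to those inside genes and below those at gene ends in quartiles 1 and 2, and all 3 classes exceed 95% in quartile 4.

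The lengths of knockout peaks over these regions are given as a description, since the rule limits the length of the Wild type peak alone and a long knockout peak is more likely to overlap one. The knockout peak was the longer in 75.02% of 3611 cases in Utx-cKO, 60.9% of 3086 in Ezh2-Cko and 56.7% of 2666 in Jmjd3-Cko. It covered the whole Wild type peak in 49.1% of cases in Utx-cKO, 33.0% in Ezh2-Cko and 29.4% in Jmjd3-Cko. For the 2254 peaks in all 3 lists, the median length was 883.5 bp in Ezh2-Cko, 1123 bp in Utx-cKO, 817 bp in Jmjd3-Cko and 785.5 bp in Wild type. For all distal peaks of each list chosen by position and length alone, the medians lay closer, at 575 bp in Ezh2-Cko, 625 bp in Utx-cKO, 590 bp in Jmjd3-Cko and 552 bp in Wild type. Of the knockout peaks, 49 in Utx-cKO, 19 in Ezh2-Cko and 21 in Jmjd3-Cko spanned several kept peaks. The Utx-cKO list was also the longest of the 4, and the part of depth and calling in these lengths was not tested.

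Non-coding genes lay at 1429 of the distal kept peaks (36.3%, interval 34.8% to 37.8%), counted where the peak came within 2 kb of the gene, against 18.8% of all Wild type peaks. The rule bars protein-coding genes but not non-coding ones, so nothing is read from this difference. Before the knockout part of the rule, 1589 of the 4636 distal peaks were at a non-coding gene. Among distal peaks before the knockout part of the rule, those at a non-coding gene were kept in 89.9% of 1589 cases and those at none in 82.4% of 3047. Of the kept ones, 65.5% of those at a non-coding gene and 52.5% of the other 2512 were in all 3 knockout lists. Median Wild type fold enrichment was 2.99 for those at a non-coding gene and 2.89 for the others.

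Strength and sharing differed with the kind of non-coding gene. The 74 peaks at tRNA genes, which encode the adaptors of translation, had a median Wild type fold enrichment of 4.53. All 74 were in the Ezh2-Cko list, 71 in the Utx-cKO list and 68 in the Jmjd3-Cko list. The 18 peaks at snRNA genes, whose products build the spliceosome, had a median of 4.46, and 17 were in Utx-cKO, 17 in Ezh2-Cko and 18 in Jmjd3-Cko. Among lncRNA genes, the 778 peaks centred at a gene end had a median of 3.05, and 70.4% were in all 3 lists. The 529 peaks in a lncRNA body away from its ends had a median of 2.87, and 54.8% were in all 3, close to the 51.8% of the 2367 peaks at neither a non-coding gene nor a pseudogene.

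**Figure D4:**
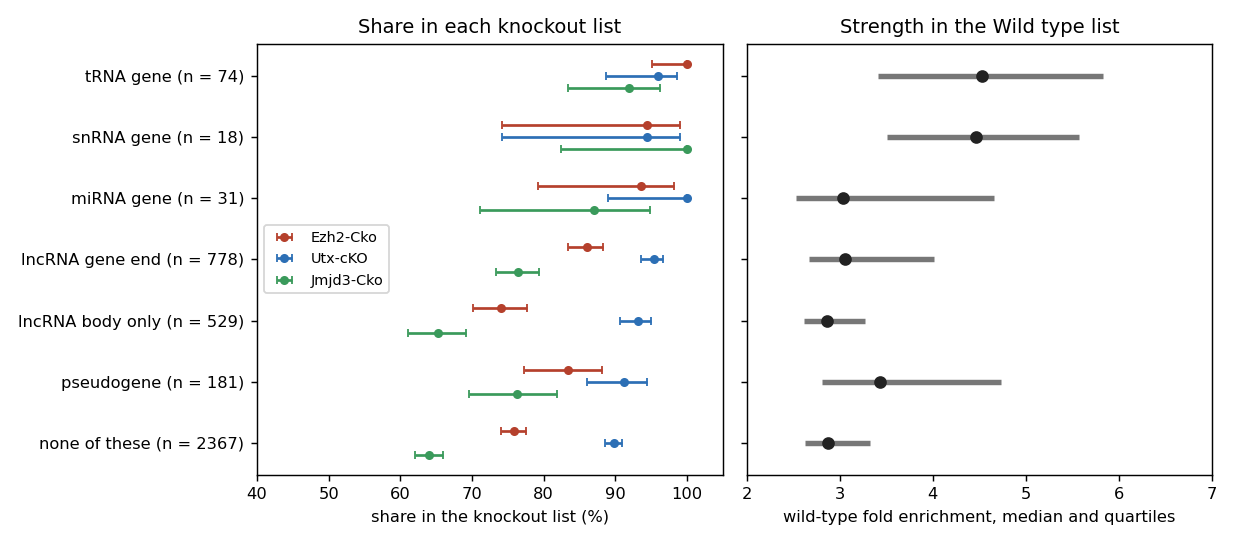
Left, share of distal kept peaks in each knockout list (%, with 95% Wilson intervals) by the annotation at the peak. Right, median and quartiles of Wild type fold enrichment in the same classes. Peaks at tRNA and snRNA genes had medians of 4.53 and 4.46, against 2.88 where no such gene was annotated.

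Seen from the genes, distal tRNA genes had a kept peak more often than distal lncRNA and miRNA genes, the 2 other kinds counted this way. Of 284 distal tRNA genes, 128 (45.1%, interval 39.4% to 50.9%) had a distal kept peak centred within 2 kb of an end, against 652 of 6505 distal lncRNA genes (10.0%) and 29 of 307 distal miRNA genes (9.45%). The interval takes each gene as separate, but neighbouring genes can share a peak. Only 74 kept peaks lay at tRNA genes, and 1 of them covered 5 such genes. The part of shared peaks in the tRNA share was not tested. In a separate count of 285 distal tRNA genes, any peak covered 88 in the Ezh2-Cko list, 94 in the Utx-cKO list, 79 in the Jmjd3-Cko list and 87 in the Wild type list. A kept peak covered 78 of them, so a knockout can only equal or fall below that number, and a knockout peak covered the same gene for 71 of them in Utx-cKO, 73 in Ezh2-Cko and 67 in Jmjd3-Cko. Chromosome 13 held 31 of the 78, within 2.36 Mb, and 26 of those were covered in Utx-cKO, 28 in Ezh2-Cko and 27 in Jmjd3-Cko. tRNA genes are short, repeated sequences, and how the authors treated reads that map to several places is not given in the sources used here. The strongest peak at a tRNA gene, over n-TRtct2 and Mir760 at chr3:122292395-122294575, had a fold enrichment of 11.4 in Ezh2-Cko, 12.4 in Utx-cKO, 11.5 in Jmjd3-Cko and 12.2 in Wild type.

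In all, 40 miRNA genes lay within 2 kb of a distal kept peak and 17 were overlapped by one. Products of 5 overlapped or flanked genes are shown, again from RefSeq build GRCm38.p6 with the seed in capitals, because the results below turn on them.
miR-193a-3p: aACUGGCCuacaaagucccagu
miR-193b-3p: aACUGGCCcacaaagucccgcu
let-7b-5p: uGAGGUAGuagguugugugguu
let-7c-5p: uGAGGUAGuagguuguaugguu
miR-125b-5p: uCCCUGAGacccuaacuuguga
The miR-193a and miR-193b products share the seed ACUGGCC. The let-7b and let-7c products share GAGGUAG and lie at 1 peak. The miR-193 genes lie on different chromosomes, and each was overlapped by a long peak. At Mir193a, chr11:79710201-79714643, the fold enrichment was 9.001 in Ezh2-Cko, 8.32 in Utx-cKO, 8.51 in Jmjd3-Cko and 7.51 in Wild type. At Mir193b, chr16:13446928-13449626, it was 6.50 in Ezh2-Cko, 7.13 in Utx-cKO, 9.58 in Jmjd3-Cko and 5.56 in Wild type. The Utx-cKO peak was 11412 bp long at Mir193a, against 4443 bp in Wild type. At Mir193b it was 5666 bp, against 2699 bp in Wild type. The peak over Mirlet7c-2, 171 bases from Mirlet7b, was weak, with 2.87 in Ezh2-Cko, 3.47 in Utx-cKO, 2.95 in Jmjd3-Cko and 2.32 in Wild type. Its length was 5477 bp in Ezh2-Cko, 14245 bp in Utx-cKO, 6642 bp in Jmjd3-Cko and 2191 bp in Wild type. let-7 miRNAs are known regulators of chondrocyte proliferation in mice. Mir137, Mir129-2 and Mir9-1, known from neurons, were at short peaks with Wild type fold enrichments of 3.20, 2.42 and 2.74, and all 3 peaks were in every knockout list. Of the 16 peaks that overlapped a miRNA gene, 16 were in Utx-cKO, 16 in Ezh2-Cko and 15 in Jmjd3-Cko.

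The paralogous hosts of the miR-99, let-7 and miR-125 clusters both carried several distal kept peaks. Mir99ahg on chromosome 16 had 3, all in all 3 knockout lists. The strongest, chr16:77499436-77504117, was 385 kb from the nearest protein-coding gene and had 9.54 in Ezh2-Cko, 9.61 in Utx-cKO, 10.7 in Jmjd3-Cko and 8.73 in Wild type. The peak 155 bases from Mir125b-2, whose product is printed above, had 5.09 in Ezh2-Cko, 6.89 in Utx-cKO, 6.02 in Jmjd3-Cko and 7.06 in Wild type. Mir100hg on chromosome 9 had 7, of which 7 were in Utx-cKO, 7 in Ezh2-Cko and 6 in Jmjd3-Cko, with Wild type fold enrichments up to 6.25. The 3 peaks at Mir99ahg were among 12 whose nearest protein-coding gene was Usp25, and those at Mir100hg were nearest to Ubash3b or Gm40514.

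Other well-known non-coding genes, chosen after their values were seen, carried kept peaks at their starts. The peak over Dancr, an lncRNA known in human cells for holding back differentiation of progenitors, had 13.9 in Ezh2-Cko, 11.8 in Utx-cKO, 13.7 in Jmjd3-Cko and 11.2 in Wild type. Its percentile ranks within those lists were 98.5 in Ezh2-Cko, 94.4 in Utx-cKO, 94.9 in Jmjd3-Cko and 96.8 in Wild type. Dleu2, host of miR-15a and miR-16, had 12.3 in Ezh2-Cko, 10.9 in Utx-cKO, 13.3 in Jmjd3-Cko and 9.99 in Wild type. Terc, the telomerase RNA, had 9.98 in Ezh2-Cko, 12.8 in Utx-cKO, 12.8 in Jmjd3-Cko and 8.20 in Wild type. The Snhg5, Snhg15 and Snhg20 genes, which host snoRNAs, had Wild type fold enrichments of 6.52, 7.33 and 6.41, and each was in all 3 knockout lists.

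The X inactivation centre and imprinted lncRNAs were among them too. Xist, which coats the inactive X, had a peak over its start at chrX:103480443-103484455 with 5.00 in Ezh2-Cko, 6.85 in Utx-cKO, 4.80 in Jmjd3-Cko and 4.02 in Wild type. Jpx, an activator of Xist, had 7.43 in Ezh2-Cko, 8.02 in Utx-cKO, 10.8 in Jmjd3-Cko and 7.06 in Wild type. Ftx, next to it, had 2 peaks, both in all 3 knockout lists. Meg3, a maternally expressed lncRNA, had 7.11 in Ezh2-Cko, 7.10 in Utx-cKO, 5.95 in Jmjd3-Cko and 4.30 in Wild type. H19, another maternally expressed RNA and host of miR-675, had 3.67 in Ezh2-Cko, 5.17 in Utx-cKO, 2.42 in Jmjd3-Cko and 2.35 in Wild type. Of the 26 genes looked up, 6 had no distal kept peak: Malat1, Hotair, Gas5 and Snhg1, each of which had a Wild type peak outside the rule, and Rian and Mirg, which had none.

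**Figure D5:**
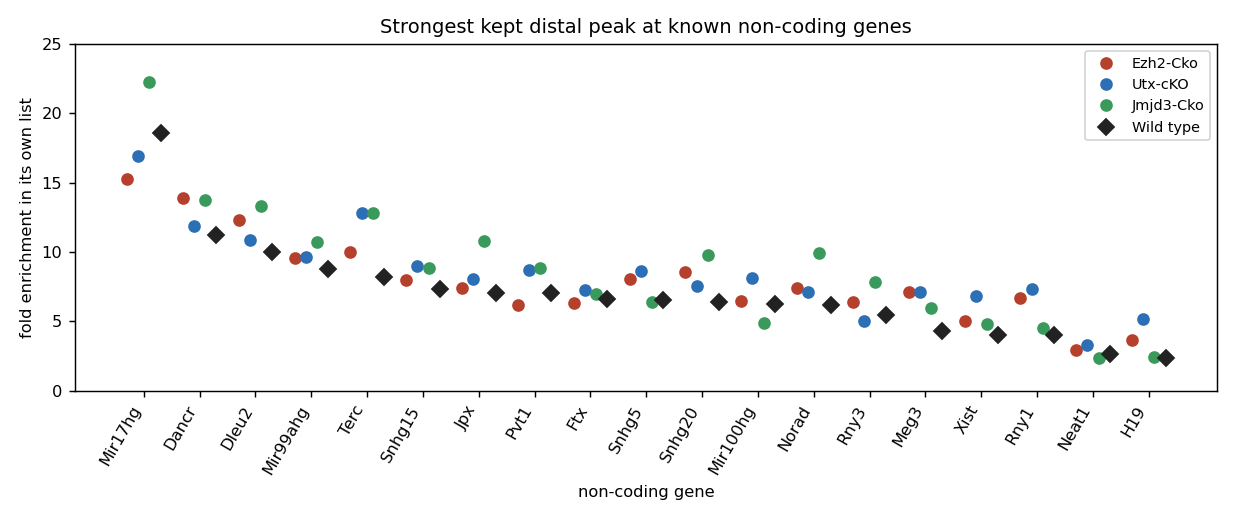
Fold enrichment of the strongest distal kept peak at each of 19 non-coding genes (horizontal axis), as given in its own list for each genotype. Mir17hg is the highest at 18.6 in Wild type, and the lowest is H19 at 2.35; values are not comparable in size between lists.

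The remaining strong peaks include 1 group of uncertain mapping. Of the 10 kept peaks of highest fold enrichment, 4 lay within 640 kb on chromosome 8, between 19784617 and 20424736, among pseudogenes. The strongest of these had 14.5 in Ezh2-Cko, 15.9 in Utx-cKO, 11.4 in Jmjd3-Cko and 18.3 in Wild type. Reads of gene copies can be placed on the wrong copy, so these 5 peaks in all are given as uncertain. Without them the median fold enrichment of the other 3936 was 2.92. The miR-17 peak apart, the other peaks among the first 10 lay at Zfp652os, with 15.1 in Ezh2-Cko, 17.3 in Utx-cKO, 15.6 in Jmjd3-Cko and 15.9 in Wild type, and at B330016D10Rik, 9430091E24Rik, Gm52862 and Mir760. The Gm52862 peak was only 241 bp long and was not in the Ezh2-Cko list. Of the 100 strongest kept peaks, 55 were at a non-coding gene, 17 at a pseudogene and 94 in all 3 knockout lists. Of all 3941, 36.3% were at a non-coding gene, 4.59% at a pseudogene and 57.2% in all 3 lists. Doubt about gene copies can therefore reach strong peaks outside the chromosome 8 group, and mapping there was not examined.

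Distal kept peaks lay a median of 27.5 kb from the nearest protein-coding gene (quartiles 12.2 and 69.1 kb), and 699 were over 100 kb away. Strength differed little with distance, with a median fold enrichment of 2.92 at 5 to 10 kb and 2.89 at 100 to 500 kb. The share kept was 88.1% of 830 distal peaks at 5 to 10 kb and 80.4% of 795 at 100 to 500 kb. At the limits of the rule, the closest peak inside was 5006.5 bases from Ift22, with a Wild type fold enrichment of 5.00, and the next 5016 bases from Hsp90aa1, with 2.48. The nearest outside were 4998 bases from Gm19802, with 5.35, and 4996.5 bases from Azin2, with 2.72. The longest kept peaks inside were 4780 and 4682 bp, and the shortest distal ones over the length limit were 5054 and 5165 bp.

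Density over the sequence that lies more than 5 kb from protein-coding genes was 2.61 peaks per Mb with X and Y included. Over the autosomes it ran from 2.01 on chromosome 14 to 4.48 on chromosome 11, with a median of 3.03. Chromosome Y held 2, or 0.023 per Mb, both in Utx-cKO alone. Chromosome X held 68, or 0.58 per Mb. Of these 68, 55 (80.9%) were in all 3 knockout lists, above the range of 48.7% to 67.5% over the autosomes. The X peaks were also stronger. A Wild type fold enrichment of 4 or more was seen in 28 (41.2%), against 15.7% of all distal kept peaks. Their median was 3.62, against 2.92 for all distal kept peaks. Over all distal kept peaks, the share in all 3 lists rose from 42.3% in the weakest quartile to 88.1% in the strongest. The part of strength in the X share was not tested, and the sex of the cells was not examined. Within 10 kb of another kept peak lay 899 (22.8%), in 388 runs. The longest run held 9 peaks over 45.3 kb, at chr2:30677046-30722373, and 7 of its peaks were in all 3 knockout lists. Its most frequent nearest gene was Cstad, 68.4 kb from its first peak.

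The densest 1 Mb windows held 18 to 21 distal kept peaks, against a median of 2 over the 1458 windows that had any. Chromosome 2 from 167 to 168 Mb held 21, next to Cebpb, Ptpn1 and Snai1, and 21 of them were in Utx-cKO, 15 in Ezh2-Cko and 14 in Jmjd3-Cko. Chromosome 2 from 30 to 31 Mb and chromosome 8 from 126 to 127 Mb, by Irf2bp2 and Tomm20, held 20 each. Chromosome 13 from 21 to 22 Mb, in the tRNA cluster, held 18 with a median fold enrichment of 3.71. Chromosome 9 from 41 to 42 Mb, around Mir100hg, also held 18.

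The peaks had 2604 different nearest protein-coding genes, 11.9% of all 21883. Of these, 77.9% had a Wild type peak at an end, against 62.3% of all genes, and 1837 were nearest to 1 peak only. Genes nearest to most were Klf14 with 13, then Usp25, Myc and Zfp516 with 12, Ubash3b, Lrig3 and Slc39a11 with 10, and Irf2bp2, Cstad, Fgfr2 and Gas1 with 9. For the 3027 peaks whose nearest gene has a strand in the table, 1603 (53.0%) lay beyond the 5′ end. Nearness does not show which gene, if any, a region acts on. Genes nearest to a kept peak also had more distal room, meaning the sequence closer to them than to other protein-coding genes and outside the 5 kb limit. Its median was 63.1 kb, against 10.7 kb for all protein-coding genes.

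Shares in the gene lists stand beside the 11.9% of all 21883 protein-coding genes that were nearest to a distal kept peak. Among the gene lists, the stress and immediate early genes had the highest share, 11 of 18 (61.1%), at a median room of 53.3 kb. Myc, a driver of proliferation, had 12 peaks, of which 10 were in Utx-cKO, 9 in Ezh2-Cko and 10 in Jmjd3-Cko. The strongest, at the start of the lncRNA Pvt1 and 48.8 kb from Myc, had 6.16 in Ezh2-Cko, 8.66 in Utx-cKO, 8.87 in Jmjd3-Cko and 7.01 in Wild type. Cebpb had 7, all on its 3′ side, of which 7 were in Utx-cKO, 5 in Ezh2-Cko and 5 in Jmjd3-Cko. Jun and Klf4 had 3 each, all in all 3 knockout lists. The strongest by Jun, 109 kb beyond its 5′ end, had 7.41 in Ezh2-Cko, 8.46 in Utx-cKO, 7.92 in Jmjd3-Cko and 7.06 in Wild type.

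Skeletal signalling genes followed with 20 of 37 (54.1%), at a median room of 142 kb. Limb and skeletal patterning genes had 16 of 32 (50%), at 125 kb. Fgfr2, a receptor for fibroblast growth factors in skeletal progenitors, had 9 peaks, of which 9 were in Utx-cKO, 9 in Ezh2-Cko and 6 in Jmjd3-Cko, with Wild type fold enrichments from 2.41 to 3.69. Ccn1, a matricellular ligand, had 4 beyond its 5′ end, and 4 were in Utx-cKO, 4 in Ezh2-Cko and 1 in Jmjd3-Cko. The strongest of 3 at Gdf6, a joint-forming BMP-family ligand, lay 72.7 kb away and had 5.34 in Ezh2-Cko, 5.02 in Utx-cKO, 5.61 in Jmjd3-Cko and 4.64 in Wild type. Meis1, a limb patterning factor, had 3, of which 2 were in Utx-cKO, 1 in Ezh2-Cko and 3 in Jmjd3-Cko.

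Of the 30 cartilage matrix and regulator genes, 10 (33.3%) had a distal kept peak, against 11.9% of all protein-coding genes. Median room was 41.3 kb in this list and 10.7 kb over all protein-coding genes. Sox9, the master regulator of chondrocytes, had 4 at 82.6 to 483 kb, of which 3 were in Utx-cKO, 3 in Ezh2-Cko and 2 in Jmjd3-Cko. The strongest, at chr11:112620620-112621975, had 3.58 in Ezh2-Cko, 5.23 in Utx-cKO, 3.97 in Jmjd3-Cko and 3.88 in Wild type. Trps1, a repressor that acts in growth plate chondrocytes, had 6, of which 4 were in Utx-cKO, 3 in Ezh2-Cko and 5 in Jmjd3-Cko. Of the 25 hypertrophy and bone genes, 7 (28%) had one, at a median room of 44.7 kb. Foxo1 had 4, all in all 3 knockout lists. The strongest by Sp7, the osteoblast factor Osterix, had 4.69 in Ezh2-Cko, 6.92 in Utx-cKO, 6.76 in Jmjd3-Cko and 4.91 in Wild type. Spp1, which encodes osteopontin, had 2, both in Utx-cKO alone, the longest list. Their Wild type fold enrichments were 2.72 and 2.93, against a median of 2.92 over all distal kept peaks.

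Markers of other cells were set beside these. Of 20 fibroblast, tendon and synovium genes, 8 (40%) had a distal kept peak, at a median room of 96.6 kb. Col1a2, a collagen I chain of fibroblasts and osteoblasts, had 6 beyond its 5′ end at 16.9 to 87.5 kb, all in all 3 knockout lists, and Dcn, the proteoglycan decorin, had 3 that were too. Endothelial and blood genes had 2 of 12 each (16.7%, interval 4.70% to 44.8%). That is near the 11.9% of all protein-coding genes, so nothing is read from these counts. The blood peaks were 6 by Runx1, a factor that blood, cartilage and bone use, and 3 by Ptprc, which encodes the leukocyte marker CD45. The highest Wild type fold enrichment was 2.99 by Runx1 and 4.07 by Ptprc. Transcription factors of other lineages had 10 of 39 (25.6%) and housekeeping genes 4 of 30 (13.3%), the latter also near 11.9%. Median room was 30.9 kb for the endothelial genes, 10.8 kb for the blood genes, 73.0 kb for the factors and 0 kb for the housekeeping genes. These lists are described by counts alone, room differed between them, and its part in the counts was not tested.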

How the data were processed

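The 4 deposited peak lists, 1 per genotype, were used. The submitters' processing notes name ChIPseeker, deepTools 2.4.1, HOMER 4.10, MACS2, Bowtie2 and FastQC 0.11.5. How reads were aligned, and what was done with multi-mapping reads, is not given in the sources used here. Each ChIP library was set, per the file headers, against its own input in MACS 2.1.2, in broad mode with both thresholds (q and broad) at 0.05, from paired fragments and without pooling. In the deposited lists a peak has a pileup (a coverage signal), a −log10 p-value, a −log10 q-value, a fold enrichment (a ratio over the input) and a length in bp. The input labels name the antibody too.

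Positions were read on GRCm38, which the names of the unplaced scaffolds and the match of peaks to gene ends point to, and the gene table was RefSeq's for GRCm38.p6, which has 21883 protein-coding and 17447 non-coding genes on the chromosomes searched. Peaks counted as overlapping from 1 bp. A peak was at a gene within 2 kb of it, and gene ends were windows of 2 kb. The nearest gene was taken from the peak centre. The software was Python 3.11.15 with matplotlib 3.10.9, scipy 1.17.1, pandas 2.3.3 and numpy 2.4.6. The rule was tested on simulated data. Genotypes were not tested against each other, since each has 1 library. Filtered depth was 25655346 to 34786292 fragments per ChIP library, and each list's threshold moves with its depth, so a weak peak can leave a list without a change in the mark. No genome sequence was used here.

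The distal kept peaks and the gene lists were chosen with earlier results of these data known. Named are the 10 strongest and 5 longest of them, those at miRNA genes, the 10 strongest at ends of other non-coding genes, the genes nearest to most of them, up to 4 genes per list, the densest windows, the strongest in 1 knockout alone, and those at the limits of the rule, of which the text gives the ones that bear on a result. Other non-coding genes and the printed promoters were chosen after their values were seen. Some of the miRNA genes are not reported here. Alternatives were stricter lists, lists of equal length, a larger overlap, autosomes only, other distances, no length limit and, added after the data were seen, a distance from genes of any kind.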

Additional observations from a re-analysis of the deposited data

Results flagged for a closer look

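Outside the main measurement, 7 Wild type peaks lay on unplaced scaffolds, which the rule does not cover. All 7 were overlapped in a knockout list, and their Wild type fold enrichments ran from 2.49 to 12.003.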

How the results depend on the processing

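With 1 library per genotype, differences between genotypes, library series and depths cannot be told apart, and no spread between replicates was available. No paired analysis was possible because no genotype has a second library. Of 89 alternative values, 46 stayed within the counting interval of the reported value, or within 1.5 times for the number of peaks. The order of Utx-cKO, Ezh2-Cko and Jmjd3-Cko in the share held was the same under 8 of 10 settings, with the reported one counted among the 8. The exceptions were lists of equal length and fold enrichment of 4 or more. Settings on chromosome, distance, overlap or peak length kept the lists of unequal length, so they do not test the part of list length in the order. With lists of equal length the intervals of the knockouts overlapped.

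At a q of 0.001 or less in every list, 1947 peaks met the rule; 89.4% of distal peaks were kept, 82.1% were in Ezh2-Cko, 92.6% in Utx-cKO, 78.1% in Jmjd3-Cko and 67.2% in all 3. At this q, 41.2% were at a non-coding gene, the median distance was 25.8 kb, the median fold enrichment 3.50, and 16.7% lay within 10 kb of another. At a fold enrichment of 4 or more, 568 peaks met the rule, 91.6% were kept, 80.6% were in Ezh2-Cko, 93.8% in Utx-cKO, 83.8% in Jmjd3-Cko and 69.5% in all 3. Here 51.6% were at a non-coding gene, the medians were 21.2 kb and 4.95, and 9.15% lay within 10 kb of another.

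With equally long lists, 75.6% were kept, 75.9% were in Ezh2-Cko, 77.0% in Utx-cKO, 76.2% in Jmjd3-Cko and 53.1% in all 3, the median fold enrichment was 3.02, and 20.05% lay within 10 kb of another. An overlap of 50% of the shorter peak gave 82.6% kept. Beyond 10 kb from genes the median distance was 37.5 kb. Beyond 20 kb, 2386 peaks met the rule, 83.7% were kept, 90.3% were in Utx-cKO, 38.3% were at a non-coding gene, the median distance was 55.4 kb, and 19.9% lay within 10 kb of another. Away from genes of any kind, an alternative chosen after seeing the data, 2083 peaks met the rule, 81.3% were kept, 75.7% were in Ezh2-Cko, 89.8% in Utx-cKO, 63.8% in Jmjd3-Cko and 51.6% in all 3, the median fold enrichment was 2.88, and 17.7% lay within 10 kb of another. A change in a median distance or fold enrichment follows from the limit itself where that limit is on distance or fold enrichment; otherwise the cause was not tested.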
